A study of Homo sapiens with 8 samples.

Results

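The 38 genes described here encode proteins of DNA repair and of the damage checkpoint. They were taken by symbol from a list of homologous recombination, Fanconi anemia, mismatch repair and ATM/ATR checkpoint genes, and all 38 are among the 25192 gene symbols that were quantified. Their messenger RNA was measured by RNA sequencing in 8 libraries of the human colorectal cancer cell lines HT29 and SW480, with 2 libraries per line from cells transfected with control siRNA and 2 from cells transfected with siRNA against PRDX2. RNA was taken 36 h after transfection in all groups. PRDX2 encodes peroxiredoxin II (PrxII), a peroxidase that removes hydrogen peroxide. HT29 cells were grown in McCoy's 5A medium and SW480 cells in RPMI1840 medium, so line and medium cannot be told apart. Each line is a single long-established culture that carries truncated APC, and the labels do not say whether the duplicates of a group came from separate transfections, so every p-value measures no more than how far the duplicates differed, and that spread may be technical.

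Homologous recombination repairs broken DNA by copying the sister chromatid. BRCA1, BARD1, PALB2 and BRCA2 act early in this process, RAD51C, RAD51D, XRCC2 and XRCC3 assist the search for the matching strand, and BLM and MUS81 with EME1 take apart the joined molecules that result. Fanconi anemia proteins remove crosslinks between the DNA strands: a core complex with the ubiquitin ligase FANCL and the conjugating enzyme UBE2T modifies FANCD2 and FANCI. The RPA trimer coats exposed DNA strands and thereby calls in the ATR kinase, which acts with TOPBP1 and CLSPN on CHEK1, while MRE11A, RAD50 and NBN hold the broken ends and activate ATM, which acts on CHEK2. Many of these genes are transcribed as cells enter S phase, under E2F transcription factors. By these roles the list was divided into 12 recombination genes, 11 Fanconi genes, 3 genes of mismatch repair with its exonuclease EXO1, 3 RPA subunits, 3 break sensing genes and 6 checkpoint genes.

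PRDX2 was at 153.2 and 158.8 CPM (counts scaled to library size with edgeR's TMM method over the 8 libraries) in HT29 control libraries and at 85.8 and 86.2 CPM after PRDX2 siRNA. In SW480 cells it was at 201.8 and 236.8 CPM in control libraries and at 66.9 and 68.0 CPM after PRDX2 siRNA. The log2 fold changes of PRDX2 were -0.87 and -1.70 (adjusted p = 1.15e-09 and 6.18e-04, the quasi-likelihood test of edgeR, adjusted by the Benjamini-Hochberg method), and the depletion differed between lines by 0.84 on the log2 scale (adjusted p = 0.0128, same test in all 8 libraries). Libraries held 8857442 to 10164137 expected counts, so that 3 counts were worth 0.292 to 0.335 CPM, which covers counting error only. All 8 epithelial markers examined had at least 3 counts in every library, although KRT20 was at only 0.616 to 0.972 CPM in SW480 libraries. Of 4 leukocyte, 4 fibroblast and 3 endothelial markers, LYZ and COL1A1 had 3 counts in every library, and PTPRC and DCN were at 0 throughout. LYZ was at 3020 to 3299 CPM in HT29 and at 2.92 to 4.46 CPM in SW480 libraries, and COL1A1 at 24.3 CPM or less.

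The duplicates were not equally close. The counts of HT29 duplicates differed by a chi-square of 1.43 (control) and 1.71 (PRDX2 siRNA) per degree of freedom over genes, those of the SW480 PRDX2 siRNA duplicates by 2.13, and those of the SW480 control duplicates by 11.2. Between groups, HT29 libraries differed by 5.85 to 6.77. SW480 control replicate 1 differed from the PRDX2 siRNA libraries by 21.7 and 23.6, and control replicate 2 by 10.6 and 10.8. Control replicate 2 was thus no closer to its own duplicate than to the PRDX2 siRNA libraries. The log2 difference between the SW480 control duplicates followed transcript GC content across 14037 genes (Spearman's rho -0.68, genes not being independent replicates), against -0.12 to -0.18 in the other groups. The 38 genes had a median transcript GC content of 43.7% (36.2% to 60.3%), against a median of 49.97% for the genes tested in HT29 cells. SW480 control replicate 1 was above replicate 2 for 30 of the 38 genes, by a median of 0.19 on the log2 scale. In the HT29 control, HT29 PRDX2 siRNA and SW480 PRDX2 siRNA groups replicate 1 was above replicate 2 for 19, 26 and 19 genes, with medians of 0.00, 0.04 and 0.00. Results for SW480 cells are therefore given with and without each control library and with a correction for GC content.

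RefSeq promoter windows of 300 bases, from 250 before to 50 after the start of the gene in GRCh38.p14, were found for 34 of the 38 genes. An E2F-type match, defined as TTTGGCGC, TTTCGCGC, TTTCCCGC or TTTGGCGG on either strand, lay in 7 of the 34 windows (20.6%), against 3.43% of 27305 promoters. The CCAAT letters, the core of the box bound by NF-Y, lay in 18 (52.9%) against 35.7%, and TTTGAA, the letters of the cell cycle homology region, in 4 (11.8%) against 15.4%. For each of the 7 genes 1 stretch with an E2F-type match is shown (FANCC holds another match, TTTCGCGC on the other strand, 172 bases before the start, that is not printed). They are shown because the genes that hold them include EXO1, CLSPN and FANCC, which changed in HT29 cells, beside MSH6, XRCC2, TOPBP1 and FANCD2, which did not pass the test there. Of the genes with a window, 3 of the 8 called in HT29 cells and 4 of the 26 others held a match. The called genes BRCA1, PALB2, BLM, FANCA and RPA1 had a window without one. A tie between match and change was not tested. Each has 30 bases around the match, 5′ to 3′ on the strand of the gene, with the match in capitals. They lie at chr1:241848197-241848226 (EXO1, plus strand), chr1:35769965-35769994 (CLSPN, minus), chr9:95317737-95317766 (FANCC, minus), chr2:47783137-47783166 (MSH6, plus), chr7:152676102-152676131 (XRCC2, minus), chr3:133661930-133661959 (TOPBP1, minus) and chr3:10026424-10026453 (FANCD2, plus).
EXO1: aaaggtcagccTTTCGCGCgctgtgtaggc
CLSPN: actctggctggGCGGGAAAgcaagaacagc
FANCC: ttcgtcggaatTTTCCCGCgacgccgcggg
MSH6: ctccccccagaTTTCCCGCcagcaggagcc
XRCC2: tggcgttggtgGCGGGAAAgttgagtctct
TOPBP1: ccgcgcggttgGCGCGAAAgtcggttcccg
FANCD2: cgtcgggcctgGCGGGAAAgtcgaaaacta
CLSPN, XRCC2 and FANCD2 share the letters GCGGGAAA, which are TTTCCCGC read from the other strand. A match of letters describes the window and is not a measured binding site.

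In HT29 cells, PRDX2 siRNA was followed by small rises of some of the recombination, crosslink repair and RPA genes, and of EXO1 and CLSPN. Of the 38 genes, 9 rose and 1 fell, with the largest rises in EXO1 and BLM at 1.37-fold and 1.34-fold. These 10 genes are 26.3% of the 38, against 17.6% of the 12961 genes tested in HT29 cells. The 9 that rose compare with 7.76% of all genes called higher, and the 1 that fell with 9.82% called lower. Fold changes of the 38 genes ran from -0.27 to 0.46 on the log2 scale, 29 of them above 0, with a median of 0.08 against 0.00 over all genes tested. At an unadjusted p under 0.05 there were 18 of the 38 (47.4%), against 30.2% of all genes tested. DESeq2 called 3 of the 38 genes (BRCA1, BLM and EXO1), against 6.72% of all genes tested with that tool. With all 8 libraries in 1 edgeR fit, where HT29 cells take on the wider spread of the SW480 duplicates, none of the 38 genes was called and 7 had an unadjusted p under 0.05. That fit called only 1.25% of the 14772 genes it tested. Both PRDX2 siRNA libraries lay above both control libraries for 19 of the 38 genes, against 29.9% of all genes, and below them for 4, against 27.4%.

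**Figure D1:**
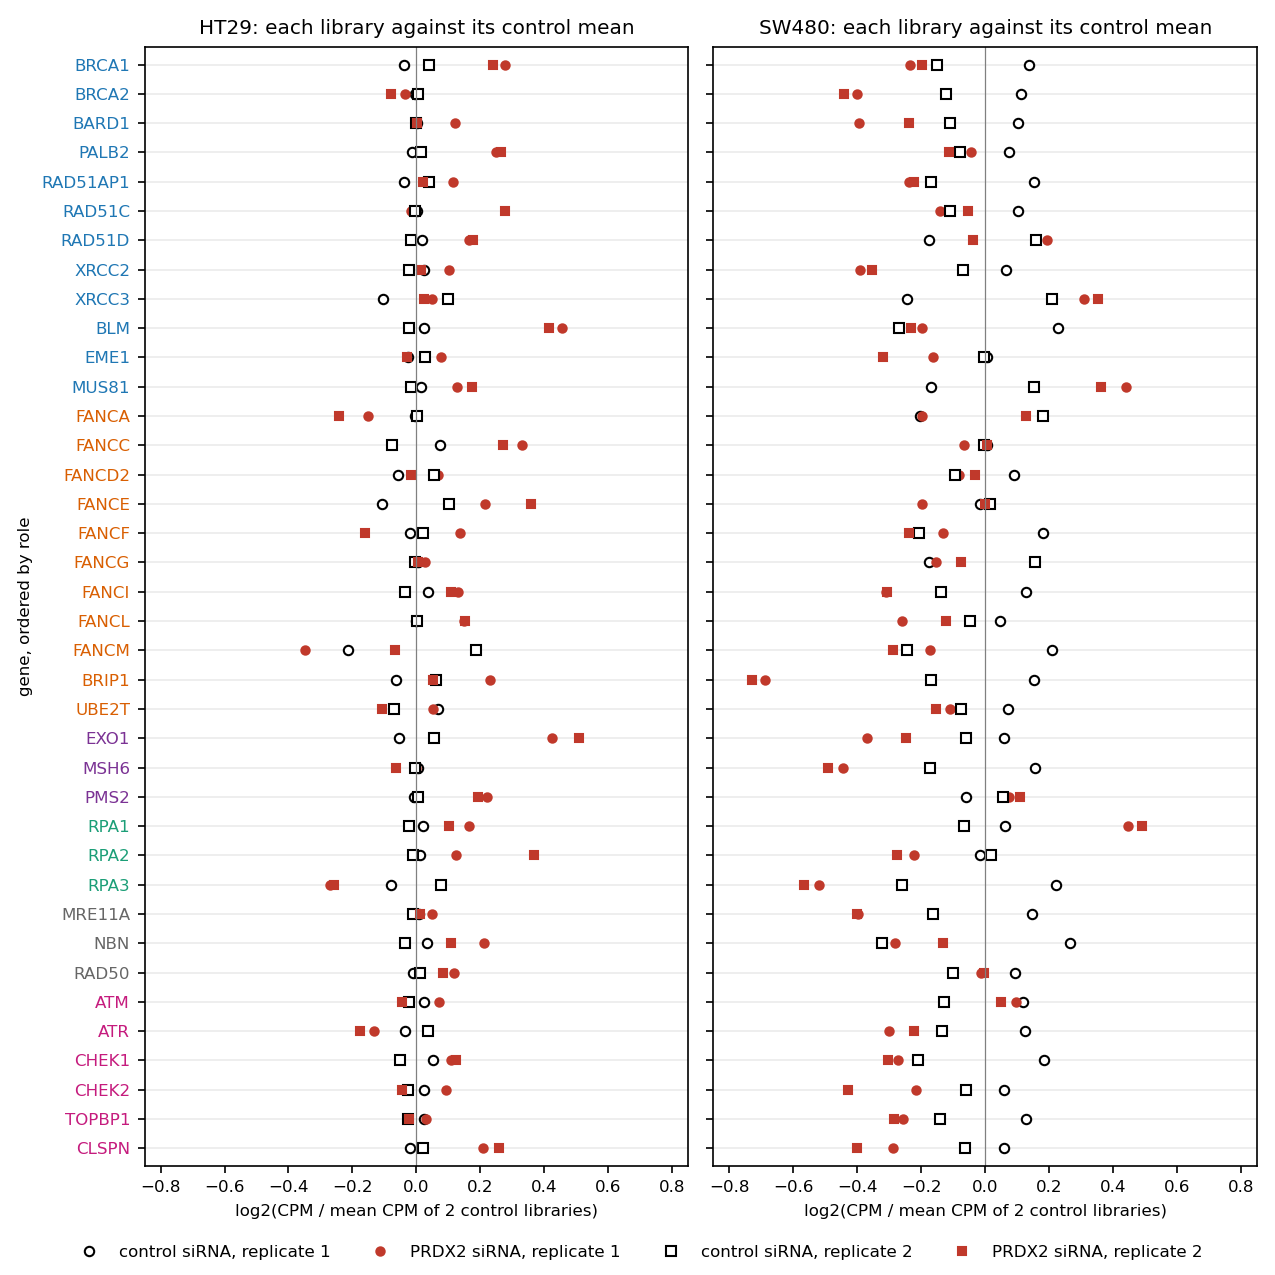
Each point is 1 library, plotted as log2 of its CPM over the mean CPM of the 2 control libraries of its line, for the 38 genes ordered and coloured by role (HT29 left, SW480 right; open symbols control siRNA, red symbols PRDX2 siRNA, circles replicate 1, squares replicate 2). In HT29 cells the red symbols of 19 genes sit to the right of both open ones, and in SW480 cells the open circle (control replicate 1) is to the right of the open square for 30 of the 38 genes.

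Among the 12 recombination genes, 3 rose in HT29 cells and none fell. BLM, the helicase mutated in Bloom syndrome (chromosome 15 of GRCh37 from 91260577 to 91359396), had 56.8 and 54.9 CPM with control siRNA and 76.5 and 74.5 CPM with PRDX2 siRNA. The groups were far apart compared with the duplicates, and the log2 fold change was 0.43 (SE 0.06, adjusted p = 4.6e-05, from the same edgeR test, which gives every adjusted p of the text). BRCA1 (chromosome 17 from 41196312 to 41322262) had 105.6 and 111.4 CPM with control siRNA and 131.4 and 128.0 CPM with PRDX2 siRNA. Its duplicates were closer to each other than the groups were, and it rose by 0.25 on the log2 scale (SE 0.05, adjusted p = 0.00162). PALB2, which links BRCA1 to BRCA2 (chromosome 16 from 23614481 to 23652642), had 44.7 and 45.6 CPM with control siRNA and 53.6 and 54.2 CPM with PRDX2 siRNA. Here too the groups did not overlap, with a rise of 0.25 (SE 0.06, adjusted p = 0.0115). The call of PALB2 was lost without HT29 control replicate 1 and without HT29 PRDX2 siRNA replicate 2, and those of BLM and BRCA1 were kept without any 1 of the 4 libraries. BRCA2, the partner of PALB2, had 90.4 and 91.1 CPM with control siRNA and 88.5 and 86.0 CPM with PRDX2 siRNA, a log2 fold change of -0.06 (SE 0.05, adjusted p = 0.432). The other 8 recombination genes had log2 fold changes between 0.02 (EME1) and 0.16 (RAD51D), none past the threshold. RAD51D overlaps the read-through transcript RAD51L3-RFFL, whose log2 fold change was 1.93 (adjusted p = 0.0316), and reads of the 2 cannot be told apart.

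Among the 11 Fanconi genes, FANCC and FANCI rose in HT29 cells and FANCA fell. FANCC, of the core complex (chromosome 9 from 97861336 to 98189078), had 44.3 and 39.9 CPM with control siRNA and 52.9 and 50.8 CPM with PRDX2 siRNA. Its control duplicates differed more than its PRDX2 siRNA duplicates, and both stayed below the latter (log2 fold change 0.29, SE 0.07, adjusted p = 0.00706), with the call lost without HT29 control replicate 2. FANCI, the partner of FANCD2 (chromosome 15 from 89787176 to 89860492), had 318.0 and 302.7 CPM with control siRNA and 339.4 and 334.8 CPM with PRDX2 siRNA. This is a small change in an abundant transcript, 1.08-fold (log2 0.11, SE 0.03, adjusted p = 0.0284), and with 1 library left out it was called only without HT29 control replicate 1. FANCA, of the core complex (chromosome 16 from 89793091 to 89883385), had 74.1 and 74.4 CPM with control siRNA and 66.9 and 62.8 CPM with PRDX2 siRNA. Both libraries after PRDX2 siRNA were lower, by 0.20 on the log2 scale (log2 fold change -0.20, SE 0.06, adjusted p = 0.0208), and the call was lost with DESeq2, with limma, without HT29 control replicate 2 and without HT29 PRDX2 siRNA replicate 2. FANCA shares sequence with ZNF276 on the opposite strand, whose log2 fold change was -0.30 (adjusted p = 0.00857), and the library kit does not mark strand, so their overlapping reads cannot be told apart. The overlapping neighbours of FANCC and FANCI, C9orf3 and POLG, had log2 fold changes of -0.04 and -0.07 with adjusted p values of 0.892 and 0.378. FANCD2, the partner that FANCI is modified with, had 44.05 and 47.6 CPM with control siRNA and 48.0 and 45.4 CPM with PRDX2 siRNA (log2 fold change 0.02, SE 0.07, adjusted p = 0.883). The remaining 7 Fanconi genes ran from -0.21 (FANCM) to 0.28 (FANCE) on the log2 scale, none past the threshold.

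EXO1, the exonuclease of mismatch repair and of break resection (chromosome 1 from 242011269 to 242058450), was at 28.8 and 31.0 CPM in HT29 control libraries and at 40.1 and 42.5 CPM after PRDX2 siRNA. The groups stood apart, and the rise of 0.46 on the log2 scale (SE 0.08, adjusted p = 5.25e-04) was the largest of the 38 genes and was called without any 1 of the 4 libraries. MSH6, a mismatch sensor, had a log2 fold change of -0.04 (adjusted p = 0.645). PMS2, which cuts the strand next to a mismatch, had 0.20 (adjusted p = 0.068), and its near-identical copy PMS2CL, with which it can share reads, had 0.61 (adjusted p = 0.0121).

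Of the RPA subunits, RPA1 and RPA2 rose in HT29 cells. RPA1, the large subunit (chromosome 17 from 1732996 to 1803376), had 170.6 and 165.5 CPM with control siRNA and 188.4 and 180.3 CPM with PRDX2 siRNA. The groups did not overlap, but the change was 1.09-fold (log2 0.13, SE 0.04) with an adjusted p of 0.0483, close to the threshold, and the call was lost without HT29 control replicate 2 and without HT29 PRDX2 siRNA replicate 1. RPA2, the subunit that ATR and its relatives phosphorylate (chromosome 1 from 28218035 to 28241257), had 53.2 and 52.4 CPM with control siRNA and 57.6 and 68.0 CPM with PRDX2 siRNA. Its PRDX2 siRNA duplicates were farther apart than the lower of them was from the control libraries (log2 0.24, SE 0.07, adjusted p = 0.0328), and the call was lost without HT29 PRDX2 siRNA replicate 2. RPA3, the small subunit, had 15.3 and 17.02 CPM with control siRNA and 13.4 and 13.5 CPM with PRDX2 siRNA, a log2 fold change of -0.27 (SE 0.12, adjusted p = 0.149).

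Of the break sensing genes, edgeR's test called none in HT29 cells, although NBN and RAD50 had an unadjusted p under 0.05 and log2 fold changes of 0.15 and 0.09 (adjusted p = 0.0604 and 0.148). DESeq2 and limma called none of them either, and NBN passed with the GC correction, with the replicate block, and without HT29 control replicate 1 or HT29 PRDX2 siRNA replicate 2. Of the 6 checkpoint genes, CLSPN alone was called in the fit of the 4 libraries, and ATR was called lower with the GC correction (log2 -0.15, adjusted p = 0.0457), with the replicate block and without HT29 control replicate 1. CLSPN, the adaptor through which ATR activates CHEK1 (chromosome 1 from 36185819 to 36235579), had 57.7 and 59.4 CPM with control siRNA and 67.6 and 69.98 CPM with PRDX2 siRNA. The duplicates were close and the groups apart (log2 0.22, SE 0.06, adjusted p = 0.0128), with the call lost with DESeq2, with limma, without HT29 control replicate 1 and without HT29 PRDX2 siRNA replicate 2. The kinases ATM, ATR, CHEK1 and CHEK2 had log2 fold changes of 0.01, -0.16, 0.11 and 0.02, with adjusted p values of 0.95, 0.0563, 0.171 and 0.896, and TOPBP1 had 0.00.

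**Figure D2:**
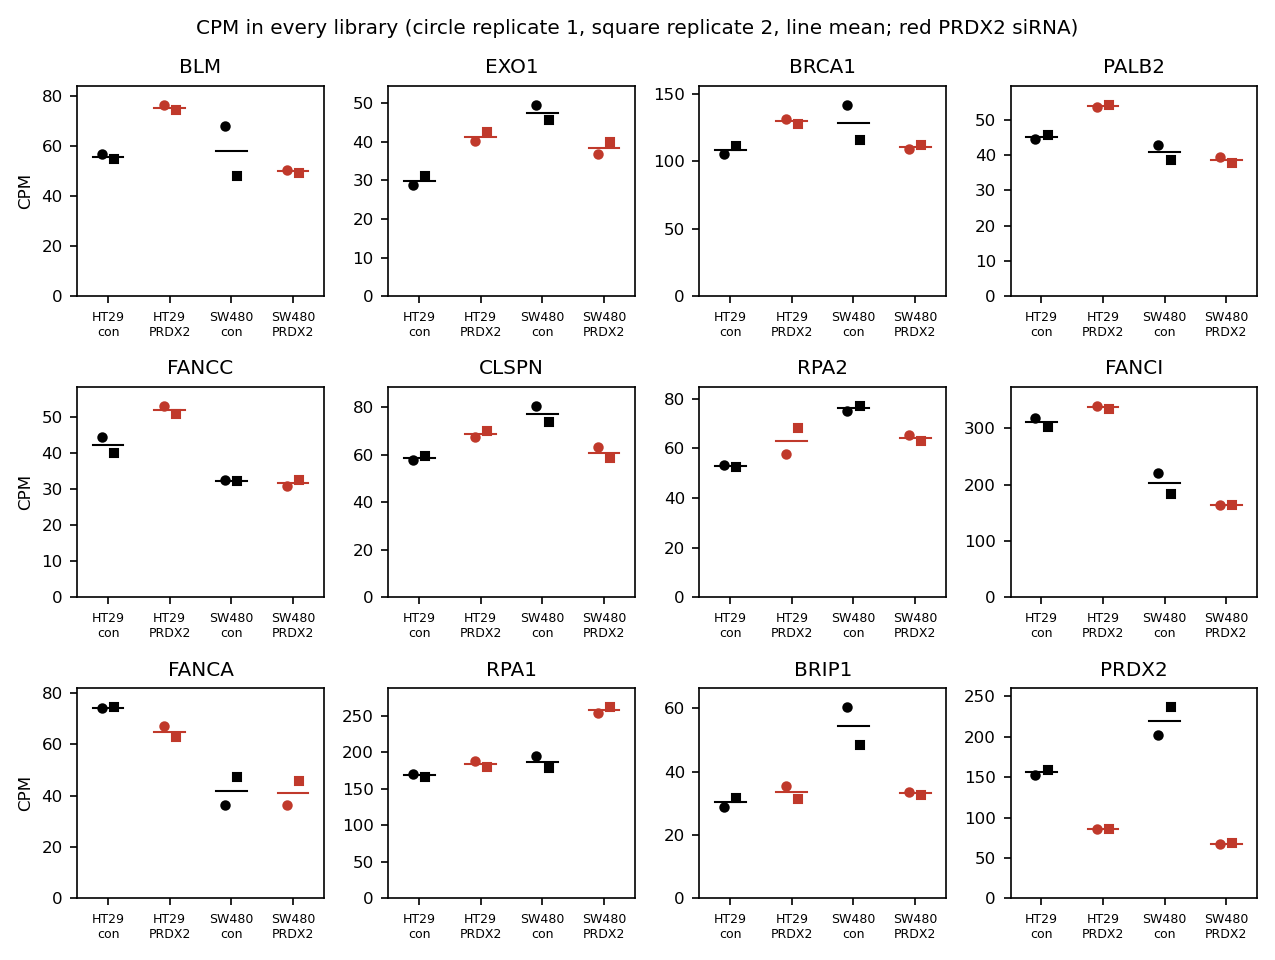
CPM (axes from 0) in each of the 8 libraries for the 11 repair genes that passed the test in a line or in the difference between lines, and for PRDX2 (circle replicate 1, square replicate 2, line mean, red PRDX2 siRNA). In HT29 cells the red points lie above the black ones for BLM, EXO1, BRCA1, PALB2, FANCC, CLSPN, RPA2, FANCI and RPA1 and below them for FANCA, and in SW480 cells they lie above for RPA1 and farthest below, on the log2 scale, for BRIP1 among the repair genes.

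The same test gave the other genes of these pathways, from lists written with earlier results of these data known. Among 20 further recombination and crosslink repair genes, 3 rose and 1 fell in HT29 cells, with log2 fold changes of 0.26 for the resection factor RBBP8 (adjusted p = 0.00208), 0.26 for TOP3A, the topoisomerase that works with BLM (adjusted p = 0.0168), and -0.30 for SHFM1, a small BRCA2-binding protein (adjusted p = 0.00124). None of 5 further mismatch repair genes was called by edgeR, and none had an unadjusted p under 0.05. Of 16 further checkpoint genes, 2 rose and 2 fell, among them H2AFX, the histone that is phosphorylated at breaks (-0.33, adjusted p = 5.28e-05), and CDC25B, a phosphatase that starts mitosis (-0.18, adjusted p = 0.0108). Of 9 end joining genes, PRKDC, the DNA-dependent kinase, rose by 0.23 (adjusted p = 5.35e-07), and the polymerase POLQ was lower, at -0.25 (adjusted p = 0.00792). Of 20 base excision repair genes, 4 rose and none fell, led by PARP1 at 0.32 (adjusted p = 1.24e-05). Of 14 nucleotide excision repair genes, 2 rose and 1 fell, among them DDB1 at 0.13 (adjusted p = 0.00135) and CETN2 at -0.30 (adjusted p = 8.09e-04). Of 20 replication licensing and proliferation genes, 10 rose and 1 fell, with a median log2 fold change of 0.13. Among them were MCM7, of the replicative helicase (0.16, adjusted p = 5.19e-04), CDC45, which activates it (0.28, adjusted p = 5.27e-04), and TOP2A, a topoisomerase of G2 and mitosis, which fell (-0.21, adjusted p = 2.98e-06). In the order given, 20%, 0%, 25%, 22.2%, 20%, 21.4% and 55% of the genes of these lists were called, against 17.6% of all genes tested. The part that cell cycle position had in the changes of the repair genes was not tested.

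In SW480 cells the repair genes lay mostly lower after PRDX2 siRNA, but few passed the test and the size of the shift depended on the control library. RPA1 rose and BRIP1 fell, 2 of the 38 genes (5.26%), against 3.3% of the 14112 genes tested. The background was 1.22% for genes called higher and 2.08% for genes called lower. Fold changes ran from -0.71 to 0.47 on the log2 scale, 32 of them below 0, with a median of -0.21 against 0.00 over all genes tested, and 11 (28.9%) had an unadjusted p under 0.05, against 24.4% of all genes. DESeq2 called 3 (RPA1, BRIP1 and MSH6), against 4.86% of all genes with that tool. Limma on log2(TPM + 1), where TPM is RSEM's measure per transcript length, called none, with 6 at an unadjusted p under 0.05. With limma 1.52% of all genes were called. Both PRDX2 siRNA libraries were below both control libraries for 20 of the 38 genes, against 29.1% of all genes, and above them for XRCC3, MUS81, PMS2 and RPA1, 4 genes against 29.6%.

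BRIP1, the helicase that binds BRCA1 and is also called FANCJ (chromosome 17 from 59756500 to 59940920), was at 60.4 and 48.3 CPM in SW480 control libraries and at 33.7 and 32.8 CPM after PRDX2 siRNA. The PRDX2 siRNA libraries were close to each other and well below both control libraries, of which replicate 1 was the higher. The log2 fold change was -0.71 (SE 0.14, adjusted p = 0.0363), a level of 0.613 times that of the control. RPA1 had 194.6 and 178.1 CPM with control siRNA and 253.7 and 261.6 CPM with PRDX2 siRNA. It was the only RPA subunit with values above the control libraries, and it rose 1.38-fold (log2 0.47, SE 0.11, adjusted p = 0.0482). RPA2 had 75.1 and 76.95 CPM with control siRNA and 65.2 and 62.8 CPM with PRDX2 siRNA (log2 -0.25, SE 0.11, adjusted p = 0.21). RPA3 had 42.5 and 30.4 CPM with control siRNA and 25.5 and 24.6 CPM with PRDX2 siRNA (log2 -0.54, SE 0.17, adjusted p = 0.111). SMYD4, which overlaps RPA1, had a log2 fold change of -0.01 in SW480 cells and 0.13 in HT29 cells (adjusted p = 0.977 and 0.477).

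The 8 other genes that rose in HT29 cells had negative log2 fold changes in SW480 cells, none past the threshold. BLM was at 68.1 and 48.2 CPM in SW480 control libraries and at 50.7 and 49.5 CPM after PRDX2 siRNA, so that the control duplicates lay on either side of both PRDX2 siRNA libraries. BRCA1 had 141.7 and 115.9 CPM with control siRNA and 109.4 and 112.3 CPM with PRDX2 siRNA. EXO1 had 49.4 and 45.5 CPM with control siRNA and 36.7 and 39.96 CPM with PRDX2 siRNA. BRCA1 and EXO1 were lower in both PRDX2 siRNA libraries, with log2 fold changes of -0.21 (SE 0.12, adjusted p = 0.31) and -0.31 (SE 0.13, adjusted p = 0.179), while BLM had -0.21 (SE 0.16, adjusted p = 0.444). CLSPN had 80.6 and 74.0 CPM with control siRNA and 63.3 and 58.5 CPM with PRDX2 siRNA (log2 -0.34, SE 0.12, adjusted p = 0.127). FANCI had 220.8 and 183.6 CPM with control siRNA and 163.1 and 163.5 CPM with PRDX2 siRNA (log2 -0.31, SE 0.12, adjusted p = 0.163). These 2 genes did not overlap between groups. PALB2, at 43.0 and 38.6 CPM and then at 39.5 and 37.7 CPM, and FANCC, at 32.4 and 32.2 CPM and then at 30.8 and 32.4 CPM, overlapped (log2 -0.08 and -0.03). FANCA, which fell in HT29 cells, had 36.3 and 47.4 CPM with control siRNA and 36.4 and 45.7 CPM with PRDX2 siRNA, with more spread within each group than between them (log2 -0.03, SE 0.17). With the GC correction the log2 fold changes of BRCA1, BLM, PALB2 and FANCC were -0.03, -0.0027, 0.08 and 0.12, and those of EXO1, FANCI, RPA2 and CLSPN were -0.17, -0.16, -0.18 and -0.20, none of them called. EXO1, FANCI, RPA2 and CLSPN were called lower in both fits that leave out a control library, BRCA1 and BLM only without SW480 control replicate 2, and PALB2 and FANCC in neither.

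By role, all 11 Fanconi genes, 9 of 12 recombination genes, all 3 break sensing genes and 5 of 6 checkpoint genes had log2 fold changes below 0 in SW480 cells, with medians of -0.13, -0.21, -0.20 and -0.28. These directions changed with the control library. Without SW480 control replicate 1, the median over the 38 genes was -0.10, 26 were below 0, and 12 were called (2 higher and 10 lower), 31.6% against 24.6% of all genes tested in that fit. Without SW480 control replicate 2, the median was -0.36, 31 were below 0, and 26 were called (3 higher and 23 lower), 68.4% against 52.8% of all genes. In both of these fits the spread comes from the close PRDX2 siRNA duplicates alone and the single control library is assumed to vary like them. With each library corrected for transcript GC content, the median was -0.04, 22 of the 38 were below 0, and 6 were called (RPA1 and ATM higher, and FANCG, BRIP1, MSH6 and RPA3 lower), 15.8% against 16.3% of all genes. RPA1 and BRIP1 were called in all 3 of these fits, with log2 fold changes of 0.53, 0.40 and 0.54 for RPA1 and -0.54, -0.86 and -0.46 for BRIP1. The calls of RPA1 and BRIP1 were lost without either of the SW480 PRDX2 siRNA libraries. The median over the 38 genes was then -0.22 (without replicate 1) and -0.21 (without replicate 2). The part of GC content in the SW480 control duplicates beyond this correction was not tested.

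**Figure D3:**
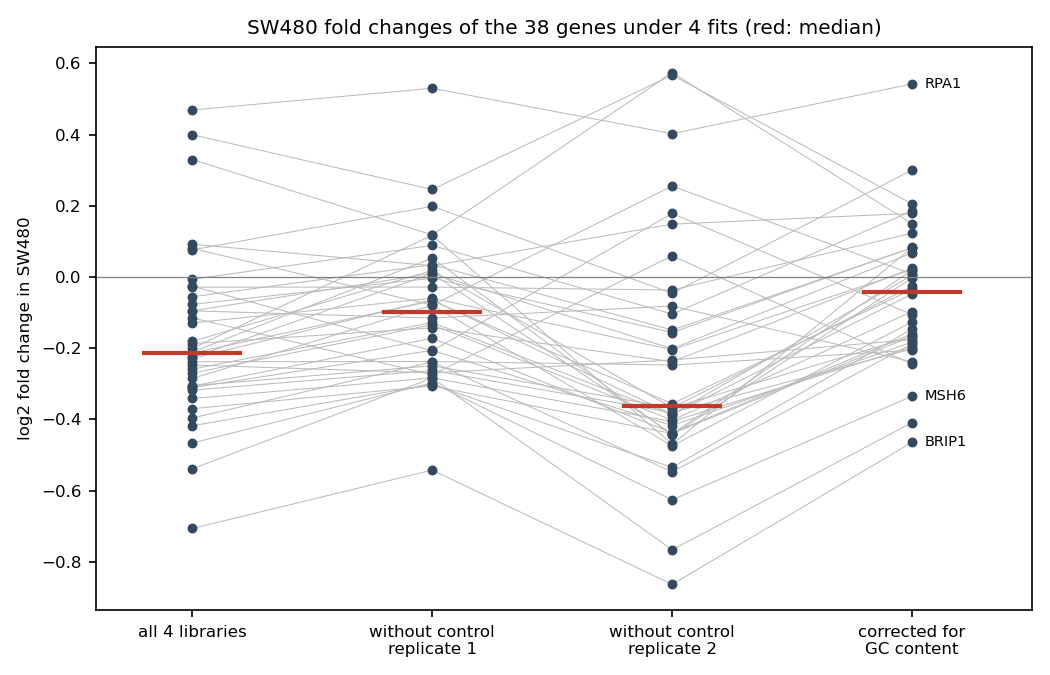
Log2 fold change (PRDX2 siRNA over control siRNA) of each of the 38 genes in SW480 cells in the fit of all 4 libraries, in the fits without each control library, and in the fit corrected for transcript GC content (points genes, grey lines join a gene, red bars medians). The median moved from -0.21 to -0.10, -0.36 and -0.04, while RPA1 stayed high and BRIP1 low in each fit.

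The other pathway lists held almost no calls in SW480 cells. Of the further genes in these 7 lists, only CETN2 of nucleotide excision repair passed edgeR's test (log2 -0.79, adjusted p = 0.0403). At an unadjusted p under 0.05 there were 5 of 20 recombination and crosslink repair genes, 4 of 5 mismatch repair genes, 2 of 16 checkpoint genes, 4 of 9 end joining genes, 1 of 20 base excision repair genes, 4 of 14 nucleotide excision repair genes and 4 of 20 replication and proliferation genes, beside the 24.4% of all genes. The gene with the smallest p was FANCB, of the Fanconi core complex (-0.81, adjusted p = 0.0534), in the first of these lists, PMS1 (-0.47, adjusted p = 0.111) in mismatch repair, CDC25C (-0.50, adjusted p = 0.0937) in the checkpoint list, POLQ (-0.49, adjusted p = 0.0679) in end joining, the glycosylase MPG (0.61, adjusted p = 0.0784) in base excision repair and CDC6 (-0.40, adjusted p = 0.0737) in replication.

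The response of BRIP1 and EXO1 differed between the lines in the fit of all 8 libraries. BRIP1 was at 29.0 and 31.6 CPM in HT29 control libraries and at 35.5 and 31.4 CPM after PRDX2 siRNA, groups that overlapped (log2 0.14, SE 0.09, adjusted p = 0.304), against the fall of 0.71 in SW480 cells. The effect in HT29 minus that in SW480 was 0.85 on the log2 scale (SE 0.17, adjusted p = 0.0471). For EXO1 the difference was 0.77 (SE 0.14, adjusted p = 0.0332). These 2 genes are 5.26% of the 38, against 1.12% of the 14772 genes tested for a difference, with 0.616% of all genes called higher in HT29 and 0.508% called lower. CLSPN had a difference of 0.57 (SE 0.12, adjusted p = 0.0526), BLM 0.64 (SE 0.19, adjusted p = 0.115), BRCA1 0.47 (SE 0.13, adjusted p = 0.11) and RPA2 0.49 (SE 0.13, adjusted p = 0.0993). RPA1 had -0.34 (SE 0.10, adjusted p = 0.12), the larger rise being in SW480 cells. Of the 38 differences, 33 were above 0, with a median of 0.31 against 0.01 over all genes, and 16 (42.1%) had an unadjusted p under 0.05, against 19.2% of all genes. Corrected for GC content the median was 0.15 and 8 of the 38 were called, against 6.75% of all genes, namely BRCA1, BLM, FANCI, BRIP1, EXO1, RPA2 and CLSPN above 0 and RPA1 below. BRIP1 and EXO1 were not called with limma on log2(TPM + 1), nor without any HT29 library or any SW480 PRDX2 siRNA library. The knockdown of PRDX2 itself was deeper in SW480 cells, and its part in these differences was not tested.

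**Figure D4:**
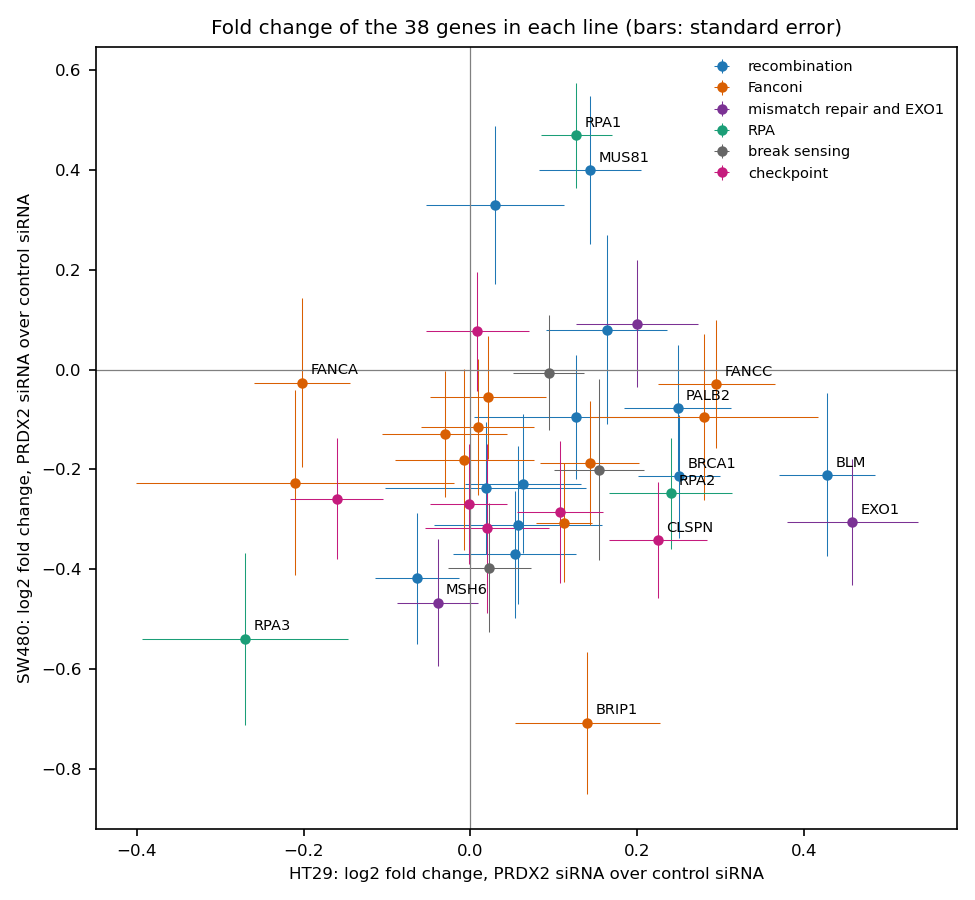
Log2 fold change after PRDX2 siRNA in HT29 cells (horizontal axis) and SW480 cells (vertical axis) for the 38 genes, coloured by role, with bars for the standard error. Of the 38 genes, 29 lie right of 0 and 32 lie below 0, and the vertical bar is the longer for each gene except FANCM.

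In control libraries the lines differed in 23 of the 38 genes (60.5%), against 67.5% of the 14346 genes tested. In SW480 cells 14 were higher and 9 lower than in HT29 cells, against 35.7% and 31.8% of all genes. RAD51C, which assists strand exchange (chromosome 17 from 56769934 to 56812972), was at 16.8 and 16.7 CPM in HT29 and at 69.5 and 60.0 CPM in SW480 control libraries. It was 3.87-fold higher in SW480 cells (log2 1.95, SE 0.14, adjusted p = 4.41e-06). RAD51D, with a related role (chromosome 17 from 33419240 to 33448541), went the other way, from 35.5 and 34.6 CPM in HT29 to 11.5 and 14.5 CPM in SW480 (log2 -1.42, SE 0.16, adjusted p = 6.89e-05). FANCM, the helicase that recruits the Fanconi core complex (chromosome 14 from 45605133 to 45670093), was at 6.69 and 8.83 CPM in HT29 and at 23.9 and 17.5 CPM in SW480 (log2 1.41, SE 0.23, adjusted p = 5.63e-04). FANCF, an adaptor of the core complex (chromosome 11 from 22644079 to 22647369), was at 44.2 and 45.4 CPM in HT29 and at 20.4 and 15.6 CPM in SW480 (log2 -1.31, SE 0.16, adjusted p = 1.00e-04). CHEK2, the kinase downstream of ATM (chromosome 22 from 29083731 to 29138410), was at 39.8 and 38.5 CPM in HT29 and at 17.7 and 16.3 CPM in SW480 (log2 -1.20, SE 0.14, adjusted p = 7.13e-05), and its overlapping neighbour HSCB was lower too (log2 -1.05, adjusted p = 9.43e-04). These 5 genes were chosen for the largest called differences between these same control libraries. After PRDX2 siRNA their log2 fold changes lay between -0.21 and 0.16 in HT29 and between -0.32 and 0.08 in SW480 cells, none past the threshold. BRIP1 and EXO1 were also higher in SW480 control libraries, by 0.84 and 0.67 (adjusted p = 9.75e-04 and 0.00164). Since those control libraries enter the knockdown comparison as well, the values are not independent of it.

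By role, 4 of 6 checkpoint genes were higher in SW480 control libraries (ATM, ATR, TOPBP1 and CLSPN) and CHEK2 lower, with log2 differences of 0.55, 0.74, 0.53, 0.40 and -1.20. The Fanconi genes divided into 4 higher and 4 lower, and the recombination genes into 2 higher and 3 lower. Corrected for GC content, 28 of the 38 (73.7%) were called, 12 higher and 16 lower, against 80.1% of all genes tested in that fit. The median of all genes moved from 0.04 to -0.23, so the direction of small differences between lines depends on the scale.

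Levels between genes were compared as TPM, which accounts for transcript length. The mean TPM over the 2 control libraries had a median of 30.8 over the 38 genes in HT29 cells and 30.9 in SW480 cells. FANCI (136.5 TPM), UBE2T (109.2 TPM) and RPA1 (80.8 TPM) were the highest in HT29 cells, and FANCM (2.27 TPM) and BRIP1 (7.71 TPM) the lowest. In SW480 cells RAD51C (134.7 TPM), MSH6 (123.2 TPM) and UBE2T (109.0 TPM) were the highest, and FANCM (6.60 TPM) and BRCA2 (10.18 TPM) the lowest. All 38 genes passed the filter on low counts in both lines, with 60 to 3343 expected counts per library.

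**Figure D5:**
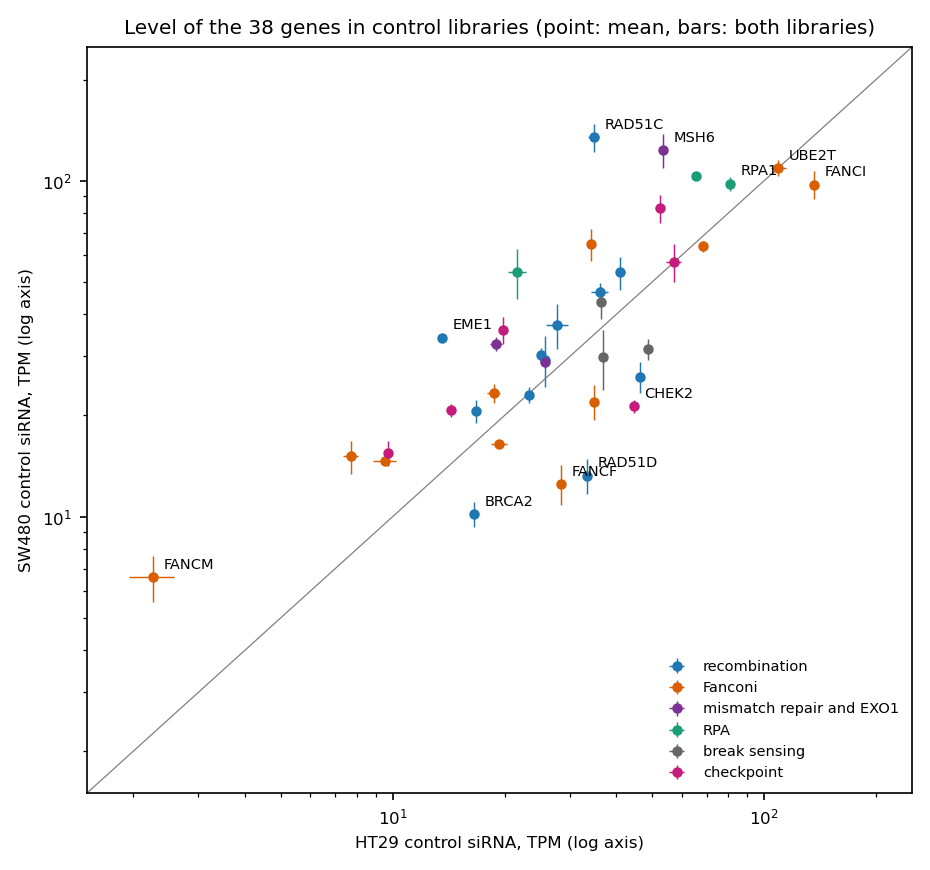
Mean TPM of the 38 genes in the control libraries of HT29 (horizontal) and SW480 (vertical), both on log axes, with bars that end at the values of the 2 libraries and the line of equal level in grey. RAD51C and FANCM lie above the line and RAD51D, FANCF and CHEK2 below it, while UBE2T lies on it.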

How the data were processed

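Per the labels and the paper's methods, polyadenylated RNA was made into TruSeq RNA v2 libraries, which do not mark strand, and sequenced in pairs. The authors trimmed the reads with Fastx-toolkit, aligned them to hg19 with MapSplice and used RSEM to estimate for each library the expected count, the TPM and the FPKM of refGene symbols. The deposited expected counts were the main measure, the deposited TPM values (scaled by RSEM to the same total in each library) served for levels and for limma, and the FPKM values were not used. The published methods describe the HT29 libraries, and the SW480 files were taken to be made alike.

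Expected counts were rounded and tested with edgeR 4.0.16 in R 4.3.3 (TMM, glmQLFit, glmQLFTest) on genes that reached 10 counts in 2 or more libraries, within each line, between the control libraries of the lines, and for the difference of effects in all 8 libraries. P-values were adjusted over all genes tested (Benjamini-Hochberg, threshold 0.05). "Called" means past this threshold. Fold changes are PRDX2 siRNA over control siRNA. Alternatives were RLE normalization, no filter, DESeq2 1.42.0, limma 3.58.1 (log2 of TPM plus 1 or plus 0.1), 1 fit of all 8 libraries, a replicate block, a loess correction (span 0.5) for transcript GC content from the GENCODE annotation of GRCh37 (the assembly of hg19), and leaving out each library. The scripts were tested on simulated counts. Values per library are given for genes called in a line or in the difference, for the 5 largest called differences between control libraries, and, chosen after their values were seen, for BRCA2, FANCD2 and RPA3. MSH6 and other single genes were also named after their values were seen. The members and lists were chosen with earlier results of these data known.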

Additional observations from a re-analysis of the deposited data

Results flagged for a closer look

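The effect of PRDX2 siRNA differed between the cell lines for 2 of the 38 genes in the test of the difference itself (the quasi-likelihood test of edgeR, adjusted by the Benjamini-Hochberg method over 14772 genes). For BRIP1 the log2 fold change in HT29 cells minus that in SW480 cells was 0.85, with log2 fold changes of 0.14 and -0.71 and an adjusted p of 0.0471. For EXO1 it was 0.77, with log2 fold changes of 0.46 and -0.31 and an adjusted p of 0.0332. BRIP1 owed most of its difference to SW480 cells, where it was called, and EXO1 was called in HT29 cells. Groups of 2 libraries are too small for a test of outlying samples.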

How the results depend on the processing

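The number of the 38 genes called in HT29 cells, 10, was 3 with DESeq2 and 0 with all 8 libraries in 1 edgeR fit (7 at an unadjusted p under 0.05). It was 9 to 13 under the other settings that kept every HT29 library. Of all genes tested, 17.6% were called in the main fit, 6.72% with DESeq2, 1.25% with all 8 libraries and 12.4% to 22.3% with those other settings. With any 1 HT29 library left out, some of the 10 calls were lost. Without 1 library the median log2 fold change of the 38 genes ran from 0.04 to 0.11. These ends were without HT29 PRDX2 siRNA replicate 1 and without HT29 PRDX2 siRNA replicate 2. BRCA1, BLM and EXO1 were called under each of these settings except the fit of all 8 libraries, where EXO1 had an adjusted p of 0.0592. In SW480 cells the 2 calls became 1 without the filter on low counts. With limma on either scale they became 0 (6 at an unadjusted p under 0.05). They became 10 (26.3%, against 16.3% of all genes) with all 8 libraries in 1 fit and 4 (10.5%, against 12.2%) with the replicate block. With the GC correction they became 6 (15.8%, against 16.3%), and with that correction and the block 6 (15.8%, against 22.2%). Without 1 library they ran from 0 (SW480 PRDX2 siRNA replicate 1 or 2 left out) to 26 (SW480 control replicate 2 left out), with 12 without SW480 control replicate 1. Differences between lines, 2 genes, became 0 with limma on either scale (12 and 13 at an unadjusted p under 0.05), 8 with the GC correction and 9 with the correction and the block, and ran from 0 (any HT29 library or SW480 PRDX2 siRNA library left out) to 24 (SW480 control replicate 2 left out), with 10 without SW480 control replicate 1. Those at 0 had 11 to 13 genes at an unadjusted p under 0.05. Over all genes, calls for the difference went from 1.12% to 6.75% with the GC correction and 7.37% with the correction and the block. They also rose over all genes without SW480 control replicate 1 or without replicate 2. Genes that differed between control libraries, 23, stayed within 21 to 28 with every library kept, against 53.8% to 80.7% of all genes. With 1 control library left out the number moved further, in both directions. The cause of these changes was not tested.

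The signs that turned were all of small log2 fold changes in SW480 cells, and none was called with the turned sign. PALB2 was at 0.014 and 0.015 with limma (TPM plus 1 and plus 0.1) and at 0.083 with the GC correction, with or without the block. BLM was at 0.0013 with the GC correction and the block, and ran from -0.44 to 0.053 with 1 library left out, being above 0 without SW480 control replicate 1. FANCA was at 0.085 and 0.089 with limma and ran from -0.21 to 0.18 with 1 library left out, being above 0 without SW480 control replicate 2 and, at 0.13, without SW480 PRDX2 siRNA replicate 1. FANCC was at 0.067 and 0.070 with limma and at 0.12 with the GC correction with or without the block, and ran from -0.065 to 0.0097 with 1 library left out, the latter without SW480 PRDX2 siRNA replicate 1. Of the other followed values, 296 kept their side of the threshold, 60 lost it and 12 gained it, all in the same direction. Outside the followed values, other signs turned too. Between control libraries, RPA1 went from 0.15 to -0.20 and PMS2 from 0.04 to -0.29 with the GC correction. Both were called lower in that edgeR fit (adjusted p = 0.00828 and 0.0150).

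The replicate numbers do not pair the libraries by any label. Across genes, libraries with the same number departed from their groups together with a correlation of 0.10 in HT29 and 0.11 in SW480 cells, with 2 pairs per line. With the replicate number as a block, 12 of the 38 genes were called in HT29 cells, 4 in SW480 cells and 2 in the difference between lines. These are 31.6%, 10.5% and 5.26% of the 38 genes, against 22.3%, 12.2% and 1.33% of all genes. With 2 libraries per group and a lone library assumed to vary like the others when its duplicate is left out, small changes such as the 1.08-fold of FANCI rest on the small spread of the HT29 duplicates across genes. FANCI itself had 318.0 and 302.7 CPM with control siRNA and 339.4 and 334.8 CPM with PRDX2 siRNA.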
